A study of Mus musculus with 6 samples.

Results

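The genes described here serve the unfolded protein response and protein folding in the endoplasmic reticulum (ER). They were chosen by name: all 39 listed symbols matched a row among the 56748 genes of the tables, and all 39 had enough counts to be tested. RNA was taken from mouse uterus at 1600 h of day 4 of pregnancy, before the embryo attaches. The series sets 3 control libraries, labelled WT by genotype, against 3 Zip10 cKO libraries, from a conditional knockout of the zinc transporter Zip10 (gene Slc39a10) that the series design calls specific to the uterus. The labels name neither the Cre driver nor the deleted exons, do not say whether the controls carry the floxed alleles without Cre, and give no age or strain. The labels call the tissue uterus and the design text calls it endometrium. Nothing says that each library is a separate mouse, so a p-value here covers the spread among the libraries, which may be technical.

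The ER folds and oxidizes proteins that a cell secretes or places in its membranes. When unfolded proteins build up, 3 membrane sensors respond. ATF6 is cut to release a transcription factor, IRE1 (gene Ern1) splices the messenger RNA of Xbp1, and PERK (gene Eif2ak3) slows translation while favouring that of ATF4. ATF6 and XBP1 induce chaperones, disulfide isomerases, degradation factors and parts of the translocation channel, and ATF4 induces amino acid synthesis genes and the stress factor CHOP (gene Ddit3). The uterine epithelium secretes heavily before implantation, so these genes also serve normal secretion there. Cleavage of ATF6, splicing of Xbp1 and phosphorylation of PERK do not show in gene totals and were not measured. The genes were divided into an ATF6/XBP1 arm of 32 and a PERK/ATF4 arm of 7. This division is a simplification, since Herpud1 and Ddit3 answer to both arms.

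Promoter sites are shown first because the arms are known by the elements their factors bind. Windows of 250 bases before to 50 bases after the gene start were taken from RefSeq (GRCm38.p6) and were found for 33 of the 39 genes, not for Derl1, Hyou1, Manf, Sec61a1, Ssr2 and Atf6. The ER stress response element (CCAAT, then 9 bases of any kind, then CCACG) was searched on both strands and occurred in 9 of the 33 genes, against 0.119% of the 32851 windows searched. Those windows leave out 1 chromosome and any window not of full length. A second form (ATTGG, 1 base of any kind, then CCACG) occurred in 2 more genes, Herpud1 and Dnajb11, against 0.0365% of windows, so 11 genes held either form. They comprised 7 chaperones, 1 isomerase and 3 degradation genes, and no translocation gene, sensor or ATF4 target. In these stretches the element is in capitals with 20 bases of flank on each side, read along the strand of the gene.

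Hspa5 (chr2:34772005-34772063, plus strand): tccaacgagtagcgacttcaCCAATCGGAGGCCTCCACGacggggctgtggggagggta
Hsp90b1 (chr10:86705618-86705676, minus strand): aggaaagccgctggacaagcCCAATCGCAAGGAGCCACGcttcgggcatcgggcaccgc
Hsp90b1 (chr10:86705513-86705571, minus strand): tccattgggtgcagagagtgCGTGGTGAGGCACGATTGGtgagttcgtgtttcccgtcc
Creld2 (chr15:88819500-88819558, plus strand): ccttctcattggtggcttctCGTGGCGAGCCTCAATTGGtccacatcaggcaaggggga
Pdia6 (chr12:17266471-17266529, plus strand): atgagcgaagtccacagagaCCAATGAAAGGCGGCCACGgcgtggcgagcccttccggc
Syvn1 (chr19:6046512-6046570, plus strand): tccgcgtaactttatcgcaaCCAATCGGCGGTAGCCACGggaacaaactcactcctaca
Herpud1 (chr8:94386357-94386407, plus strand): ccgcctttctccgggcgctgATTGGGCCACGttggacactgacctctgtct

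The element of Hspa5 began 65 bases before the gene start and that of Syvn1 began 44 bases before it. In Creld2 and in the second site of Hsp90b1 it stood on the opposite strand, as CGTGG followed by ATTGG. Calr, Canx, Dnajc3 and Derl3 held it too. The composite element bound by ATF4, TGATGNAA, is less specific and occurred in 3.97% of all windows. It was found in 4 of the 33 genes, namely the ATF4 targets Chac1, Trib3 and Asns, and Herpud1. An 8-base XBP1 element, TGACGTGG, occurred in 0.676% of all windows and in none of these genes. The sites of 3 of these genes are shown for contrast, with the element in capitals.

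Asns (chr6:7693205-7693252, minus strand): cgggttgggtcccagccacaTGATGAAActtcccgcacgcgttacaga
Chac1 (chr2:119351029-119351076, plus strand): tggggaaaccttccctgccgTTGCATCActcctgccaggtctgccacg
Herpud1 (chr8:94386297-94386344, plus strand): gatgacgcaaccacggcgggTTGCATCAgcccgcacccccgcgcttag

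A match of letters describes the window and does not show that a factor was bound.

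The libraries held 19643069 to 22809574 counts, and 16737 genes were tested. Values are given in the order of libraries 1, 2 and 3 of each group, as CPM (counts scaled to library size). Slc39a10 itself was at 54.6, 70.4 and 66.2 CPM in the controls, against 39.5, 72.5 and 79.8 CPM in the cKO libraries. The groups overlap, so the total of this gene does not separate the labels, and directions are those of the libraries labelled Zip10 cKO. cKO library 1 stood apart on a multidimensional scaling plot, at -1.48 on its first dimension where the other libraries lay between -0.08 and 0.74, and it had 3.43% mitochondrial counts where they had 4.50% to 4.84%. Markers of epithelium, stroma, endothelium and smooth muscle were all detected in every library. In bulk tissue, fewer cells of a type and less RNA per cell cannot be told apart.

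No gene of the response passed the test: an adjusted p under 0.05 in edgeR's quasi-likelihood test called 0 of 16737 genes (0% called) and 0 of the 39. The smallest adjusted p among the 39 was 0.747 in that test. At an unadjusted p under 0.05 there were 2 of the 39, beside 6.46% of all genes. They were Ern1, higher in cKO libraries (4.48% of all genes in that direction), and Sec61b, lower (1.98%). DESeq2 called none of the 39 and had 4 at an unadjusted p under 0.05, namely Sdf2l1, Manf, Sec61b and Spcs2, beside 4.15% of the genes it tested. The groups did not overlap for 4 of the 39, beside 12.7% of all genes. Xbp1, Sec61b and Spcs2 were the lower ones (5.78% of all genes) and Chac1 the higher one (6.93%). The edgeR and overlap shares are near the background, and the DESeq2 share, resting on 4 genes, is above its background. That background is an unlike one, since DESeq2 was run without the low-count filter and covers 28970 genes, scarce ones included. Without that filter edgeR's share of all genes at an unadjusted p under 0.05 was 5.29% in place of 6.46%. Of the 39 fitted log2 fold changes, 31 were below 0, beside 50.6% of all genes, and their median was -0.18 beside -0.00 over all genes. On log2(TPM + 1), a per-length scale, 27 of the 39 were below 0, and the median of all genes was 0.05.

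**Figure D1:**
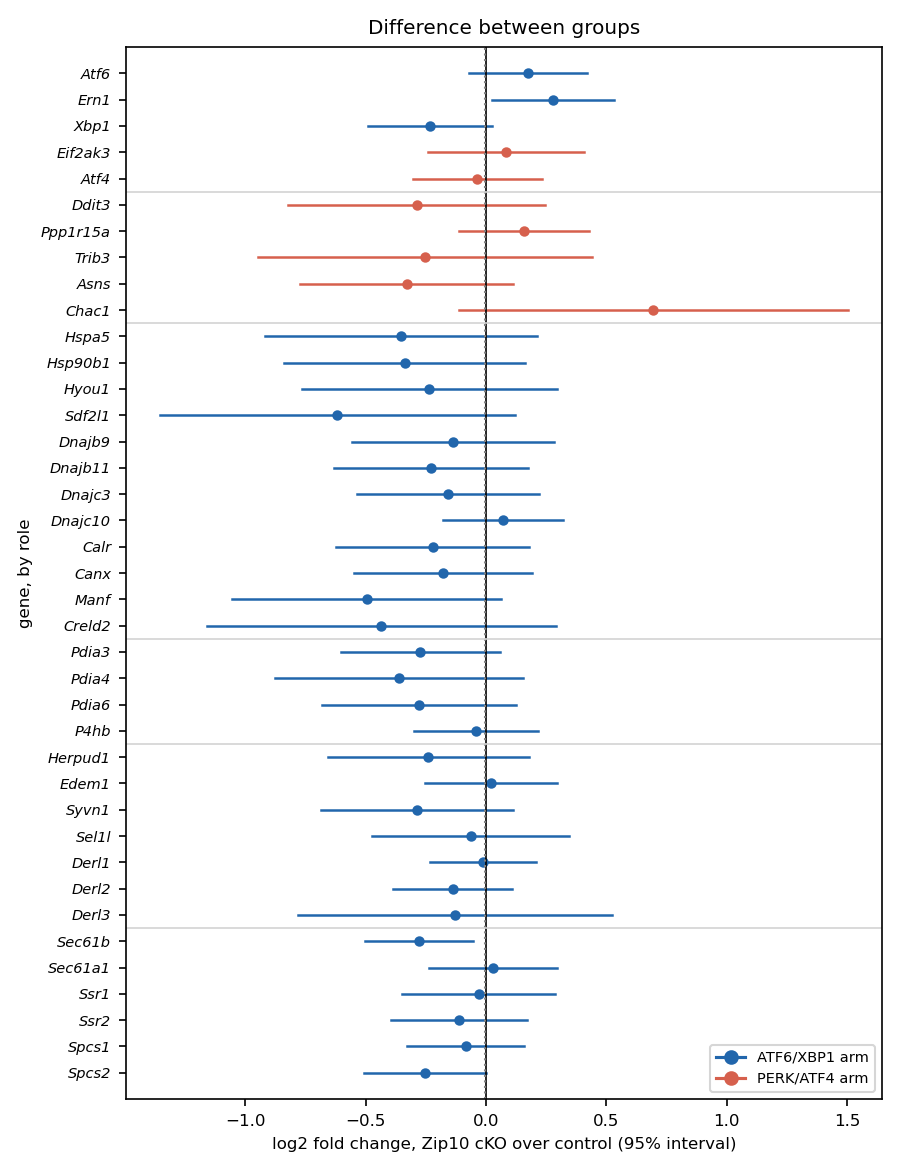
Fitted log2 fold change of Zip10 cKO over control (x axis) for each of the 39 genes (y axis, by role from sensors at the top to translocation at the bottom), with 95% intervals from edgeR's quasi-likelihood fit of 3 against 3 libraries. Blue marks the ATF6/XBP1 arm and red the PERK/ATF4 arm, and the dotted line is the median of all genes tested. Only the intervals of Ern1 and Sec61b leave out 0, before any adjustment, and most blue points lie left of it.

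The ER chaperones are the core of the response. Of the 12 chaperones and cochaperones, 11 had a log2 fold change below 0, with a median of -0.23, and none passed the test. Hspa5, which encodes BiP, the main Hsp70 chaperone of the ER and the partner that keeps the sensors inactive, was at 828, 1450 and 1135 CPM in the controls, against 771, 1176 and 724 CPM in the cKO libraries. The groups overlap widely, since control 1 was close to the low cKO libraries and cKO library 2 exceeded 2 of the 3 controls. The means were 1137 ± 311 and 890 ± 248 CPM (SD, n = 3 each), a fold of 0.783 with a 95% interval from 0.529 to 1.16, which leaves room for a reduction as well as for a small increase (edgeR's quasi-likelihood adjusted p = 0.772).

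Hsp90b1, the ER member of the Hsp90 family, followed the same order of libraries within the controls. Hsp90b1 was at 816, 1370 and 1127 CPM in the controls, against 863, 1070 and 690 CPM in the cKO libraries. The ratio of its CPM to that of Hspa5 lay between 0.910 and 1.12 in the 6 libraries. Between control 1 and control 2 alone, Hspa5 differed 1.75-fold and Hsp90b1 1.68-fold, whereas the group means differed by folds of 0.783 and 0.792. The log2 fold change of Hsp90b1 was -0.34 ± 0.22 (SE), within the spread between replicates.

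The widest ranges among the chaperones were those of smaller factors. Sdf2l1, a partner of BiP and its cochaperones, was at 25.01, 54.2 and 42.0 CPM in the controls, against 19.7, 36.8 and 22.5 CPM in the cKO libraries, a log2 fold change of -0.62 ± 0.32 (SE). Manf, a secreted ER factor that binds BiP, was at 183, 287 and 219 CPM in the controls, against 137, 223 and 128 CPM in the cKO libraries, a log2 fold change of -0.50 ± 0.24. Creld2, an ER factor induced by stress, was at 54.9, 94.2 and 68.5 CPM in the controls, against 36.6, 80.8 and 43.5 CPM in the cKO libraries, a log2 fold change of -0.43 ± 0.31. In all of these genes control 2 was the highest library, and the lowest control stood below cKO library 2. From the lowest to the highest library Sdf2l1 spanned 2.75-fold, Creld2 2.57-fold and Manf 2.24-fold. Manf, with 24932 counts in total, overlaps Rbm15b on the same strand (8584 counts) and Dcaf1 on the other (5616 counts). Part of its reads is therefore uncertain.

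Hyou1, a large ER chaperone that exchanges nucleotide on BiP, was at 213, 337 and 256 CPM in the controls, against 192, 305 and 187 CPM in the cKO libraries. Among the J-domain cochaperones that recruit BiP, Dnajb11 gave -0.23 ± 0.18, Dnajc3 -0.16 ± 0.17 and Dnajb9 -0.14 ± 0.18 as log2 fold change with SE. Dnajc10, a J-domain protein that reduces disulfides, was the one chaperone with a positive value, at 0.07 ± 0.11. The lectin chaperones of glycoproteins were close to this range, with calreticulin (Calr) at -0.22 ± 0.18 and calnexin (Canx) at -0.18 ± 0.16. The 95% interval of each of these genes holds 0.

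**Figure D2:**
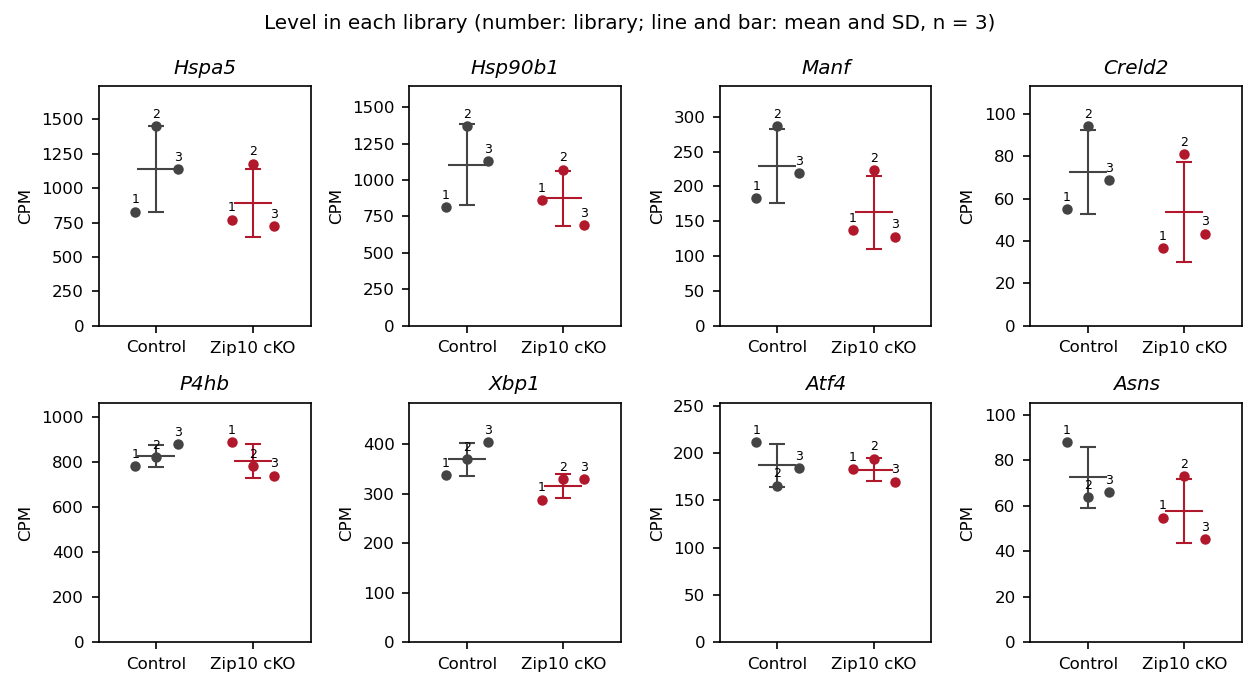
CPM (y axis, from 0) of 8 genes in each library, with the library number above each point and the mean and SD of 3 libraries as line and bar; grey is control and red is Zip10 cKO. Hspa5, Hsp90b1, Manf and Creld2 share a high control 2 and a high cKO library 2, P4hb and Atf4 vary little, and Xbp1 is the gene of the 8 whose groups do not overlap.

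The protein disulfide isomerases form and rearrange the disulfide bonds of secreted proteins. All 4 had log2 fold changes below 0, and none passed the test. Pdia4 was at 233, 389 and 330 CPM in the controls, against 239, 310 and 192 CPM in the cKO libraries, a log2 fold change of -0.36 ± 0.22 (SE). Pdia3, which works with calnexin and calreticulin, was at 678, 900 and 836 CPM in the controls, against 716, 714 and 569 CPM in the cKO libraries, at -0.27 ± 0.15. Pdia6 gave -0.28 ± 0.18. P4hb, the archetypal isomerase and also a subunit of the collagen prolyl hydroxylase, went from 739 to 885 CPM over the 6 libraries and gave -0.04 ± 0.11. It was the steadiest of the 16 folding genes, with 1.2-fold between its extreme libraries, and the ratio of Hspa5 to P4hb in CPM ran from 0.871 in cKO library 1 to 1.77 in control 2.

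The folding genes differed between libraries of the same group. Of the 12 chaperones and 4 isomerases, 13 had their highest level in control 2, the highest library of 15.5% of all genes tested. The lowest level was in cKO library 3 for 11 of the 16, beside 19.6% of all genes tested. Among the 2036 genes with a mean of at least 100 CPM, 14.0% were highest in control 2 and 32.2% were lowest in cKO library 3. Over the 39 genes, 10 were lowest (24.6% of all genes) and 7 highest (24.6%) in cKO library 1, 2 were lowest in control 2 (14.2%) and 0 were highest in cKO library 3 (15.5%). Within the controls, 15 of 16 were higher in control 2 than in control 1, beside 49.6% of all genes. Within the cKO libraries, 13 of 16 were higher in library 2 than in library 1, beside 53.3% of all genes, and 15 of 16 were higher in library 2 than in library 3, beside 54.3%. The median SD within groups was 0.28 on the log2 CPM scale for these 16 genes, 0.20 for all genes tested and 0.15 for those 2036 abundant genes. For 12 of the 16 the group difference was smaller than the gene's own SD within groups, beside 63.7% of all genes.

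**Figure D3:**
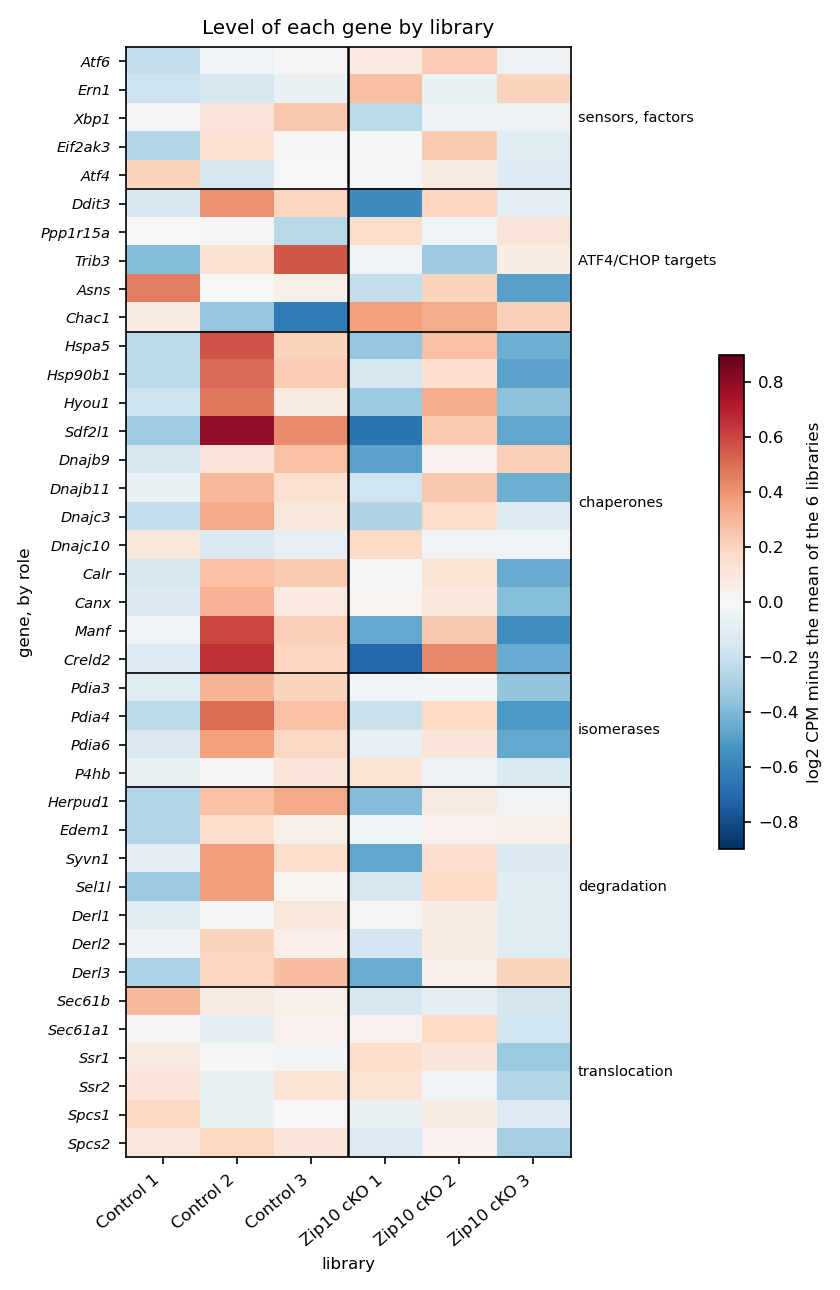
Log2 CPM of each of the 39 genes (rows, by role) in each library (columns), as a difference from the mean of the 6 libraries; red is above and blue below that mean. Control 2 is red and cKO library 3 is blue for most chaperones and isomerases, while control 1 is blue like cKO library 1.

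The median spread was also wider among genes with an ER stress element. The 11 genes that held either form spanned a median of 1.70-fold from lowest to highest library and 9 of them were highest in control 2. The 22 genes with a window but neither form spanned a median of 1.40-fold, and 8 were highest in control 2. All 11 had a log2 fold change below 0, with a median of -0.24, and 16 of the 22 did, with a median of -0.11. The sets also differ in role, since 7 of the 11 are chaperones and no translocation gene or sensor with a window held either form. Chaperones with either form spanned 1.53-fold (Dnajc3) to 2.57-fold (Creld2). Those with a window but neither form spanned 1.24-fold (Dnajc10), 1.68-fold (Dnajb9) and 2.75-fold (Sdf2l1). This is a description of the genes listed, and the motif was not tested against the level. P4hb and Dnajc10, the 2 steadiest folding genes, held neither form in their windows, and nor did Sdf2l1, the widest, or Pdia4 at 2.02-fold.

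ER-associated degradation takes misfolded proteins back to the cytosol. Of its 7 genes 6 had log2 fold changes below 0, with a median of -0.13, and none passed. Syvn1, the ubiquitin ligase HRD1, was at 91.3, 126 and 108 CPM in the controls, against 70.2, 108 and 88.4 CPM in the cKO libraries, a log2 fold change of -0.29 ± 0.17 (SE). Its exons overlap those of Mrpl49 on the other strand, and the strand setting of the counts is not given, so part of its reads is uncertain. Herpud1, a scaffold of the same complex, was at 73.4, 106 and 112 CPM in the controls, against 67.3, 93.5 and 86.3 CPM in the cKO libraries, at -0.24 ± 0.18. The groups overlap for both genes, since control 1 lay below cKO library 2.

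The rest of the degradation list was close to 0. Sel1l, the adaptor of HRD1, gave -0.06 ± 0.18 and Edem1, a mannosidase-like factor that marks glycoproteins for disposal, gave 0.02 ± 0.12. The derlins Derl1 and Derl2, membrane proteins of the exit channel, gave -0.01 ± 0.10 and -0.14 ± 0.11. Derl1 differed by no more than 1.14-fold between any 2 libraries, the narrowest range of the 39 genes. Derl3, the derlin of highly secretory cells such as plasma cells, was scarce, at 2.20, 3.11 and 3.31 CPM in the controls, against 1.95, 2.81 and 3.13 CPM in the cKO libraries, and its groups overlap. Each library held 41 to 70 counts of it, which limits the precision of its log2 fold change of -0.13 ± 0.29.

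The translocation genes bring new proteins into the ER and remove their signal peptides. They varied less between libraries than the chaperones, with a median SD within groups of 0.13, and 5 of 6 had log2 fold changes below 0. Sec61b, the small beta subunit of the channel, was at 88.8, 76.5 and 74.9 CPM in the controls, against 65.1, 68.5 and 64.6 CPM in the cKO libraries. Every cKO library was below every control. The fold was 0.825 with a 95% interval from 0.706 to 0.964, and edgeR's quasi-likelihood adjusted p was 0.747. Spcs2, a subunit of the signal peptidase, was at 164, 174 and 165 CPM in the controls, against 141, 157 and 124 CPM in the cKO libraries, again without overlap, with a log2 fold change of -0.25 ± 0.11 (SE).

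Their partners did not share that separation. Sec61a1, the pore subunit that assembles with Sec61b, was at 272, 256 and 277 CPM in the controls, against 277, 305 and 238 CPM in the cKO libraries, a log2 fold change of 0.03 ± 0.12. Spcs1, another subunit of the signal peptidase, gave -0.08 ± 0.11, and the translocon-associated proteins Ssr1 and Ssr2 gave -0.03 ± 0.14 and -0.11 ± 0.12. All 6 genes were lowest in cKO library 3, as were 62.1% of the other translocation and glycosylation genes and 32.2% of genes with a mean of at least 100 CPM. Sec61b is short, with a mean length of 562 bases, and with the dependence on gene length removed its log2 fold change was -0.22 in place of -0.28.

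The sensors and factors that start the response differed in direction. Xbp1 was at 337, 370 and 403 CPM in the controls, against 288, 329 and 329 CPM in the cKO libraries, with every cKO library below every control. The means were 370 ± 33.3 and 315 ± 23.8 CPM (SD, n = 3 each), a fold of 0.852 with a 95% interval from 0.712 to 1.02 (edgeR's quasi-likelihood adjusted p = 0.747). In TPM the groups of Xbp1 overlap, with control 1 at 223 TPM and cKO library 2 at 237 TPM. Ern1, whose product splices Xbp1, was at 47.7, 48.7 and 52.0 CPM in the controls, against 65.6, 52.0 and 62.5 CPM in the cKO libraries. Its fold was 1.21 with a 95% interval from 1.02 to 1.45, the same adjusted p applied, and control 3 and cKO library 2 were at about the same level. Atf6 was at 53.0, 60.2 and 60.7 CPM in the controls, against 65.2, 71.9 and 59.3 CPM in the cKO libraries, a log2 fold change of 0.18 ± 0.11 (SE), and its groups overlap.

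In the PERK/ATF4 arm no gene passed the test, 4 of 7 log2 fold changes were below 0, and the median was -0.04. Eif2ak3 was at 25.1, 33.1 and 30.5 CPM in the controls, against 29.9, 35.6 and 28.4 CPM in the cKO libraries, a fold of 1.06 with a 95% interval from 0.848 to 1.33. Atf4 was at 211, 165 and 184 CPM in the controls, against 183, 194 and 170 CPM in the cKO libraries, a fold of 0.976 with a 95% interval from 0.809 to 1.18. Both pairs of groups overlap. The interval of Atf4 leaves out a 1.5-fold difference in total RNA either way. ATF4 is controlled mainly through its translation, which total RNA does not show.

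The targets of ATF4 and CHOP pointed different ways. Asns, asparagine synthetase, was at 87.8, 63.7 and 66.0 CPM in the controls, against 54.8, 73.1 and 45.3 CPM in the cKO libraries, a log2 fold change of -0.33 ± 0.19 (SE). Ddit3, which encodes CHOP, was at 8.66, 12.85 and 11 CPM in the controls, against 6.46, 11.04 and 9.09 CPM in the cKO libraries, at -0.29 ± 0.23. Its exons overlap those of the methionyl-tRNA synthetase gene Mars on the other strand, which held more counts, so part of its reads is uncertain. Ppp1r15a, the phosphatase subunit GADD34 that ends the PERK signal, was at 0.16 ± 0.12, with all libraries between 27.4 and 36.7 CPM.

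Trib3, a pseudokinase induced by ATF4 and CHOP, was at 2.07, 3.01 and 4.11 CPM in the controls, against 2.66, 2.16 and 2.88 CPM in the cKO libraries, at -0.25 ± 0.30. Chac1, a glutathione-degrading enzyme at the end of this branch, was at 0.703, 0.494 and 0.378 CPM in the controls, against 0.903, 0.874 and 0.795 CPM in the cKO libraries, without overlap. It rested on 8 to 19 counts a library, and its fold of 1.62 had a 95% interval from 0.926 to 2.83. Ppp1r15a and Chac1 gave positive values while Asns, Ddit3 and Trib3 gave negative ones, so these targets did not share a direction.

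Set side by side, the arms had medians of -0.20 for the 32 genes of ATF6/XBP1, 27 of them below 0, and -0.04 for the 7 of PERK/ATF4, a difference of -0.16 on the log2 scale. In single libraries the mean of the ATF6/XBP1 arm, as a log2 CPM difference from the mean of the 6 libraries, was -0.10, 0.24 and 0.14 for the controls, against -0.16, 0.11 and -0.22 for the cKO libraries. That of the PERK/ATF4 arm stayed between -0.06 and 0.10. The SD within groups of these arm means was 0.17 for the first arm and 0.06 for the second. Single genes of the arms varied alike, with a median SD within groups of 0.25 and 0.26. A mean over genes that point different ways hides their spread. Within the ATF6/XBP1 arm the groups overlap, as control 1 was below cKO library 2. The median of this arm was -0.12 without cKO library 3, and -0.08 on log2(TPM + 1). On that scale the median of the PERK/ATF4 arm was 0.04 and that of all genes was 0.05. The difference between the arms was -0.02 without control 2, -0.10 without cKO library 1, -0.06 with a stricter filter on low counts and -0.26 without control 1.

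Single libraries weighed on the group comparison. Without cKO library 2, 12 of the 39 genes had an unadjusted p under 0.05, beside 8.97% of all genes, among them Manf at -0.79, Creld2 at -0.86 and Hspa5 at -0.61 as log2 fold change. Without control 1 there were 10, beside 3.96% of all genes, among them Hsp90b1 at -0.52 and Sdf2l1 at -0.88. There were 0 without cKO library 1, which stood apart (4.3% of all genes), and 0 without cKO library 3 (8.06%). Without control 2 there was 1 (4.87% of all genes), and without control 3 there was 1 (6.85%). No gene of the 39 passed an adjusted p of 0.05 in any of these fits by edgeR's quasi-likelihood test. Each of these fits leaves 2 libraries in a group.

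In level per length (TPM), the folding machinery was among the abundant transcripts of the uterus. Calr was the highest, at 754 ± 153 TPM in controls and 667 ± 118 TPM in cKO libraries (SD, n = 3 each), and ranked 174 of 56748 genes by its mean over the 6 libraries. Hspa5 followed at 716 ± 221 and 601 ± 141 TPM, then Hsp90b1 at 549 ± 160 and 454 ± 88.3 TPM and Manf at 507 ± 130 and 377 ± 109 TPM. These neighbours do not differ beyond their spread. P4hb at 414 ± 42.9 TPM, Pdia3 at 396 ± 73.1 TPM and Spcs1 at 331 ± 16.2 TPM came next in controls, and Xbp1 stood at 261 ± 34.6 TPM. The sensors were scarce, with means over the 6 libraries of 11.3 TPM for Atf6, 11.4 TPM for Ern1 and 10.2 TPM for Eif2ak3. At the low end stood Derl3 at 4.18, Trib3 at 2.04 and Chac1 at 0.622 TPM, the last ranking 16354.

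Other genes of the pathway, 115 listed of which 113 were tested, gave no calls either. None passed in either direction and 4 had an unadjusted p under 0.05, beside 6.46% of all genes. Of the 113, 58 were higher and 55 lower, at a median of 0.01 on the log2 scale. Of 38 other genes of the PERK/ATF4 branch and of amino acid supply, 21 were higher and 17 lower. Vldlr, a lipoprotein receptor induced by ATF4, was at 137, 132 and 123 CPM in the controls, against 205, 167 and 154 CPM in the cKO libraries, a log2 fold change of 0.43 ± 0.13 (SE). Atf3, a stress-induced transcription factor, was at 12.9, 13.8 and 7.60 CPM in the controls, against 21.3, 15.5 and 17.9 CPM in the cKO libraries, at 0.67 ± 0.235. The groups overlap for neither gene, and edgeR's quasi-likelihood adjusted p was 0.747 for each. Stc2, a secreted glycoprotein induced by PERK, gave 0.39 ± 0.18.

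Of 22 other folding genes 9 were higher and 13 lower, and their median SD within groups was 0.12, where that of the 12 chaperones was 0.32. Fkbp2, a prolyl isomerase of the ER, gave -0.28 ± 0.11, Hspa13, an Hsp70 relative in microsomes, 0.23 ± 0.09 and Erp29, an isomerase-like factor, -0.19 ± 0.09. Of the 17 other degradation genes 12 were higher, with Selenos, a selenoprotein of the exit complex, at -0.32 ± 0.14, Edem3 at 0.21 ± 0.11 and Selenok at -0.16 ± 0.10. Of the 29 translocation and glycosylation genes 10 were higher, with Rpn1, an oligosaccharyltransferase subunit, at -0.19 ± 0.13, Sec11c, of the signal peptidase, at -0.165 ± 0.12 and Srp54a, of the signal recognition particle, at 0.24 ± 0.17. Of 7 regulators and relatives of the ATF6 and XBP1 branches 6 were higher, led by Creb3l2, a relative of ATF6, at 0.19 ± 0.13, Wfs1 at 0.14 ± 0.11 and Mbtps1, the protease that cuts ATF6, at 0.10 ± 0.11.

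The share of secretory epithelium was not measured, and the levels of marker genes are given in its place. The median SD within groups of the secretory markers was 0.76 on the log2 CPM scale. Of 14 markers of glands and secretory epithelium, 9 were lower and 5 higher in cKO libraries, none passed the test, and their summed level was 757 to 955 TPM in controls and 524 to 1057 TPM in cKO libraries. By library the sums were 955, 757 and 783 TPM in the controls, against 524, 928 and 1057 TPM in the cKO libraries. Control 2, where Hspa5 was highest, had the lowest sum of the controls, and cKO library 3, where Hspa5 was lowest, had the highest sum of all. Other libraries went the other way. cKO library 1 had the lowest sum of all and a low Hspa5 of 771 CPM, and cKO library 2 was high in both, with Hspa5 at 1176 CPM. The 13 general epithelial markers, 11 of them lower in cKO libraries with a median of -0.25, summed to 1197, 1146 and 809 TPM in the controls, against 707, 1023 and 885 TPM in the cKO libraries. No marker of these lists was at 0 in any library.

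Smooth muscle markers were higher in cKO libraries for 10 of 10, with sums of 4614 to 8731 TPM in controls and 7817 to 11995 TPM in cKO libraries, and a median log2 fold change of 0.54. Of 12 stromal markers 7 were higher and 5 lower, with a median of 0.06, and they summed to 4478 to 6030 TPM in controls and 6564 to 7464 TPM in cKO libraries. Macrophage markers were higher for 8 of 8, with sums of 260 to 339 TPM and 296 to 722 TPM, the last in cKO library 1. Plasma cells, which are rich in Xbp1 and Derl3, had 7 of 7 tested markers higher, with sums of 3087 to 3257 TPM in controls and 3417 to 4596 TPM in cKO libraries. NK and T cell markers were higher for 7 of 8, with sums of 35.0 to 55.1 TPM in controls and 67.5 to 100 TPM in cKO libraries. Endothelial markers were lower for 7 of 8, with a median of -0.12, and summed to 334, 427 and 440 TPM in the controls, against 350, 396 and 366 TPM in the cKO libraries. Their mean log2 CPM, as a difference from the mean of the 6 libraries, was -0.13, 0.13 and 0.17 for the controls, against -0.15, 0.04 and -0.06 for the cKO libraries. For the 16 chaperones and isomerases the same measure was -0.14, 0.37 and 0.18 for the controls, against -0.22, 0.16 and -0.34 for the cKO libraries. Both lists were above their mean in controls 2 and 3 and cKO library 2, and below it in the other libraries. The endothelial values were smaller in size in every library, and this list was set beside the folding genes with its values known. The general epithelial list did not share these signs, at 0.40, 0.21 and -0.29 for the controls, against -0.37, 0.15 and -0.11 for the cKO libraries. None of these markers passed the test. The part of cell type content in the values of the folding genes was not tested.

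**Figure D4:**
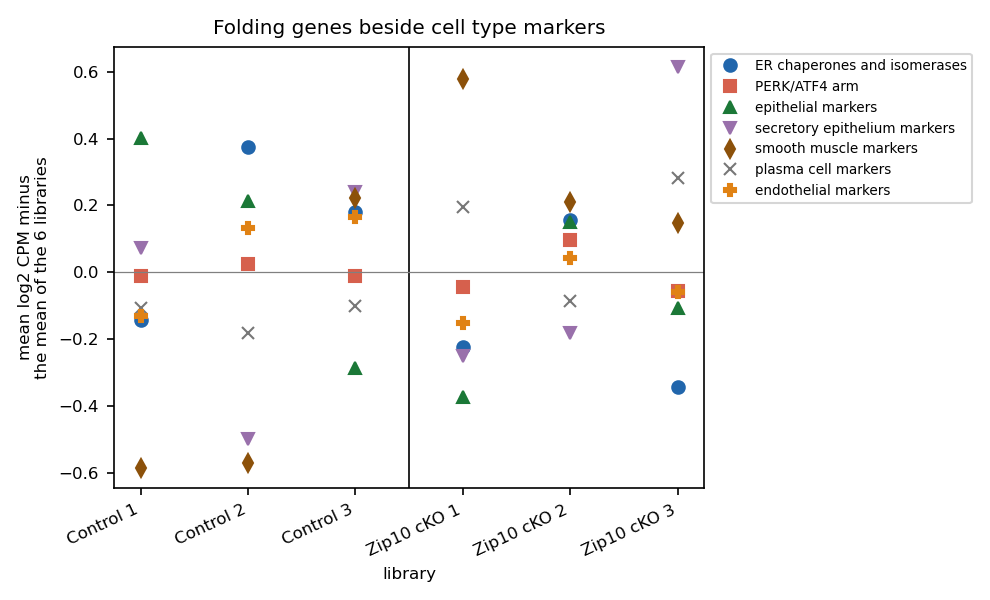
Mean log2 CPM of gene lists in each library (x axis), as a difference from the mean of the 6 libraries (y axis). Points for the 16 ER chaperones and isomerases lie at 0.37 in control 2 and -0.34 in cKO library 3. In the same libraries secretory epithelium markers lie at -0.50 and 0.61 and endothelial markers at 0.13 and -0.06. The mean of the PERK/ATF4 arm stays near 0 throughout, while its single genes vary more.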

How the data were processed

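Poly(A) RNA of 6 libraries was fragmented, randomly primed and sequenced, per the labels' protocols. The submitters' processing notes list RSEM 1.3.3, STAR 2.7.10a, fastp 0.23.2 and GRCm39, with no annotation or strand setting named. The authors deposited, per the file headers, RSEM expected counts (multi-mapped reads are divided among genes) and TPM. GENCODE M21 gave symbols to 91.8% of IDs. Of 2 IDs named Ddit3 the older was used, and the other held 0 counts.

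Expected counts were rounded, filtered by filterByExpr (minimum count 10, total 15), scaled by TMM and tested two-sided with edgeR 4.0.16 (quasi-likelihood, R 4.3.3), Benjamini-Hochberg adjusted across 16737 genes. Log2 CPM used a prior count of 3. The members, lists, motifs and alternatives were chosen with earlier results of these data known. Per-library values are given for members whose groups do not overlap, the sensors, Hspa5, Hsp90b1, Ddit3, Asns, Derl3 and the 2 members of each role with the smallest p. Of the pathway lists the 3 smallest p are named. Other members shown by library (Creld2, Hyou1, Trib3, Sec61a1) were chosen after their values were seen. In counts simulated for these 16737 genes, Zip10 cKO against control, edgeR recovered 28% of 1.5-fold, 76% of 2-fold and 98% of 4-fold changes. In the same counts edgeR called 13 unchanged genes. The changed genes were drawn only from those with higher mean counts, so scarce members such as Chac1 are not covered. The 16 folding genes had a median SD within groups of 0.28, beside 0.15 for genes of at least 100 CPM. The percentages may therefore be too high for them. No pair of libraries agreed within sampling noise (chi-square per degree of freedom at least 14.2). Exons of 9 members overlap a tested gene on the other strand, and those of Hsp90b1 and Manf also overlap one on the same strand. Protein ends, part of the plan, were not analysed here. Alternatives used DESeq2 1.42.0 and limma 3.58.1.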

Additional observations from a re-analysis of the deposited data

How the results depend on the processing

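The test called 0 genes, where leaving out the low-count filter gave 15, DESeq2 gave 37 and leaving out single libraries gave 0 to 2 (2 without cKO library 1). The cause was not tested. None of the 39 genes was called under any of the 16 alternatives, with a smallest adjusted p of 0.492. With a library left out, the ATF6/XBP1 median of -0.20 ran from -0.293 to -0.124, the PERK/ATF4 median of -0.04 from -0.117 to 0.012 and their difference of -0.16 from -0.263 to -0.020. The PERK/ATF4 median was -0.154 with a stricter filter, which leaves fewer genes in the list, and 0.039 on both log2(TPM + 1) and log2(TPM + 0.1). The medians of all genes on these 2 scales were 0.051 and 0.06, so small positive values there are near the background. Of 623 values of single members under an alternative, 597 kept their direction. The 26 that did not belong to 12 genes. On log2(TPM + 1) and log2(TPM + 0.1) they were Atf4 at 0.039 on both, P4hb at 0.006 on both, Sel1l at 0.014 and 0.016, and Derl1 at 0.054 and 0.055. With the length trend removed Edem1 was at -0.067. With a library left out, the ranges were -0.030 to 0.172 for Eif2ak3, -0.117 to 0.052 for Atf4, -0.480 to 0.010 for Trib3, -0.287 to 0.037 for Dnajb9, -0.004 to 0.134 for Dnajc10 and -0.119 to 0.014 for P4hb. They were -0.098 to 0.113 for Edem1, -0.229 to 0.131 for Sel1l, -0.071 to 0.029 for Derl1, -0.296 to 0.048 for Derl3, -0.064 to 0.118 for Sec61a1 and -0.120 to 0.109 for Ssr1.

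With a replicate block for the library numbers, 0 genes and 0 members were called, the arm medians were -0.205 and -0.031, and 9 members had an unadjusted p under 0.05 (beside 8.09% of all genes) in place of 2 (beside 6.46%). Deviations of same-numbered libraries correlated at 0.092, 0.254 and 0.189. Each control correlated best with the cKO library of its own number, but cKO library 1 correlated best with control 3 (0.119). Whether same-numbered libraries form pairs or batches was not tested, and the labels give only the number. Scarce members limit precision: Chac1 had 8 to 19 counts a library and Derl3 41 to 70.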

Other observations

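Genes outside the lists shared the library pattern of Hspa5, and they were singled out after their values were seen. As a measure of likeness, the root mean square distance between log2 CPM profiles over the 6 libraries was taken, each profile centred on its own mean, and the other tested genes were ranked by it. The nearest gene was Kcnj2, a potassium channel gene, at 0.07. Among the 10 nearest were the ER genes Hyou1, Pdia4, Hsp90b1 and Manf, at distances of 0.08 to 0.11, and Magt1, a subunit of the oligosaccharyltransferase, at 0.10. The same 10 held C030015A19Rik and 3 genes of the cytosolic heat shock system, which is induced by another factor, HSF1. Hspa8, the constitutive cytosolic Hsp70, was at 2534, 3868 and 3116 CPM in the controls, against 2520, 3185 and 2187 CPM in the cKO libraries. Dnajb1, its Hsp40 partner, was at 48.6, 86.5 and 60.3 CPM in the controls, against 46.9, 71.5 and 48.6 CPM in the cKO libraries. Chordc1, an Hsp90 cochaperone, was at 98.4, 159 and 115 CPM in the controls, against 84.3, 109 and 85.04 CPM in the cKO libraries.

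By the same measure, Atf4 ranked 8532, Ern1 12476 and Chac1 15049 in distance from Hspa5, and P4hb ranked 4401. Ddit3, a target of ATF4 placed in the other arm, ranked 63, ahead of Calr at 78 and Canx at 107.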
